A study of Mus musculus with 3 samples.

Results

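The Pax genes Pax1 to Pax9 encode transcription factors of the paired box family, and their DNA methylation was measured by reduced-representation bisulfite sequencing (RRBS) in mouse embryonic stem (ES) cells. Each of the 9 genes was taken with a window from 5000 bp upstream of its start to 5000 bp past its end (GENCODE vM1, mm9), and every CpG covered by over 10 reads was used. This gave 1558 CpGs in at least 1 library, of 1236267 such CpGs in the whole dataset, and 862 CpGs covered in both wild-type and Dnmt3a KO cells, of 631561. Within each window a CpG-rich part was set from the mm9 sequence, as 500 bp stretches with a GC content of at least 55% and an observed over expected CpG ratio of at least 0.65. All other CpGs of the window make up the flank.

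The dataset holds 1 library each of wild-type (WT), Dnmt3a KO and Dnmt TKO ES cells, all grown in serum medium with LIF. WT cells came from blastocysts of mixed 129-C57Bl/6 background and grew on feeder cells or gelatine. Dnmt3a KO cells had the same mixed background, grew on gelatine and lack the de novo methyltransferase gene Dnmt3a after CRISPR/Cas9 cutting, and the number of clones behind the library is not given in the sources used here. Dnmt TKO cells lack Dnmt1, Dnmt3a and Dnmt3b, are of strain J1 and grew on gelatine, so they differ from WT in strain too. With 1 library per genotype no difference has a replicate check, and genotype, clone, culture surface and, for Dnmt TKO, strain cannot be told apart. RRBS reads the ends of MspI fragments after bisulfite conversion, which does not separate 5-methylcytosine from 5-hydroxymethylcytosine.

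Pax factors bind DNA through the paired domain and, in some members, a homeodomain, and they direct the formation of organs in the embryo. In ES cells such lineage regulators are known to be mostly silent, and many start in CpG islands that carry Polycomb marks and no DNA methylation, beside shores that can be methylated. By sequence the family falls into the groups Pax1 and Pax9, Pax2, Pax5 and Pax8, Pax3 and Pax7, and Pax4 and Pax6. Dnmt3a adds methyl groups to unmethylated CpGs, while Dnmt1 copies methylation after replication.

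The stretches that carry the main contrasts are printed here in mm9, 5′ to 3′ on the plus strand, with 10 bp on either side of the outermost CpG. Capitals mark the CpGs covered by over 10 reads in both WT and Dnmt3a KO. The first 5 are the flank stretches with the largest fall in Pax1, Pax2, Pax5, Pax6 and Pax7. They were taken among stretches of at least 3 CpGs with a WT mean of at least 20% that hold no UTR sequence. Their falls, from -25.1 to -41.3 points, are thus extremes, against -11.7 over all Pax flank CpGs. That their CpGs were lower in Dnmt3a KO follows in part from this choice. The intervals given below for printed stretches take no account of how the stretches were picked. The next 2 lie in Pax5 introns and are shown for contrast, a methylated stretch with the smallest difference and the flank stretch with the most CpGs. The last is CpG-rich DNA of Pax3 in which no read was methylated.
Pax1 intron, chr2:147198990-147199092: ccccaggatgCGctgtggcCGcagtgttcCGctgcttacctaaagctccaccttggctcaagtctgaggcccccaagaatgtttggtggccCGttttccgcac
Pax2 intron, chr19:44899845-44899993: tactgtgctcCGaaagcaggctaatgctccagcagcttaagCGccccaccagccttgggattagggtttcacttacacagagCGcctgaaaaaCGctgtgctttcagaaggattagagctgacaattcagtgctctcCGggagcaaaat
Pax5 downstream, chr4:44541795-44541886: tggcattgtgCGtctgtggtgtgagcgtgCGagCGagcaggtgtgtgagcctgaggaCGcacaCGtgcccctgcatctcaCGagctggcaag
Pax6 intron, chr2:105527360-105527401: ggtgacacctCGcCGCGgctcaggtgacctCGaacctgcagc
Pax7 intron, chr4:139351950-139352218: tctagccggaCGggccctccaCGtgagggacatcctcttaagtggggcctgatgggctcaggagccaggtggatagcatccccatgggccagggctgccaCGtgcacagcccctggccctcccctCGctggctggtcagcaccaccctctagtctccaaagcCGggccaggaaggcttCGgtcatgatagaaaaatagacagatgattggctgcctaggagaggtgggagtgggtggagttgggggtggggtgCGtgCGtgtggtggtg
Pax5 intron, little changed, chr4:44606369-44606442: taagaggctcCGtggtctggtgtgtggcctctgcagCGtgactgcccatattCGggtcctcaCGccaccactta
Pax5 intron, low in WT, chr4:44570984-44571240: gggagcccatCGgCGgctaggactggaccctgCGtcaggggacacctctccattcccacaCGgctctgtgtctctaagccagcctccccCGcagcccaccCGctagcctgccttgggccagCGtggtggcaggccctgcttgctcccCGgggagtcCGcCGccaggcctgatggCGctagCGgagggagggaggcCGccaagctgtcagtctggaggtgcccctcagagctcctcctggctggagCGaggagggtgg
Pax3 intron, CpG-rich, chr1:78186166-78186284: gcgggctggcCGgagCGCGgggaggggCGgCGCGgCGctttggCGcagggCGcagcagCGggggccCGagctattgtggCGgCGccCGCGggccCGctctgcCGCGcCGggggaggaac

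In WT cells the CpG-rich DNA of the Pax genes was nearly free of methylation and the flanks were partly methylated, and in Dnmt3a KO cells the flanks were lower in each of the 8 genes that could be compared. Over 280 flank CpGs the mean methylation was 29.1% in WT against 17.4% in Dnmt3a KO, lower by a difference of -11.7 points out of 100 (-12.9 to -10.5 at 95% confidence). Over 582 CpGs of the CpG-rich parts it was 1.70% in WT and 0.490% in Dnmt3a KO, a difference of -1.21 points (-1.64 to -0.774), which became -3.05 with CpG-rich windows of 200 bp and -0.684 at over 20 reads. In Dnmt TKO cells, 8 of 4704 reads over CpG-rich parts and 5 of 1787 reads over flanks were methylated. Pax4 had no CpG-rich DNA in its window and no CpG that WT and Dnmt3a KO shared.

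These levels are means over CpGs of methylated reads divided by all reads. Intervals of differences come from the binomial variance of the reads, treat CpGs as independent and cover counting error only. Since PCR copies and neighbouring CpGs on the same read are not independent, these intervals can be too narrow. With the reads summed instead, 26.0% of 12131 WT flank reads (Wilson 95% interval 25.3 to 26.8) and 16.0% of 5327 Dnmt3a KO flank reads (15.1 to 17.0) were methylated. In the CpG-rich parts the shares were 1.25% of 28981 reads (1.13 to 1.38) and 0.474% of 14339 reads (0.374 to 0.601). Of the 280 flank CpGs, 215 were lower in Dnmt3a KO, 22 were higher and 43 were equal. Most flank CpGs of the whole dataset were lower too, 133106 of 181839, with 31588 higher and 17145 equal. The number of flank CpGs at 80% or more fell from 35 in WT to 12, and the number with no methylated read rose from 45 to 139, in libraries whose median depth at these CpGs was 37 and 17 reads. A CpG with fewer reads shows none methylated more readily, and the part of depth in that last count was not tested.

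**Figure D1:**
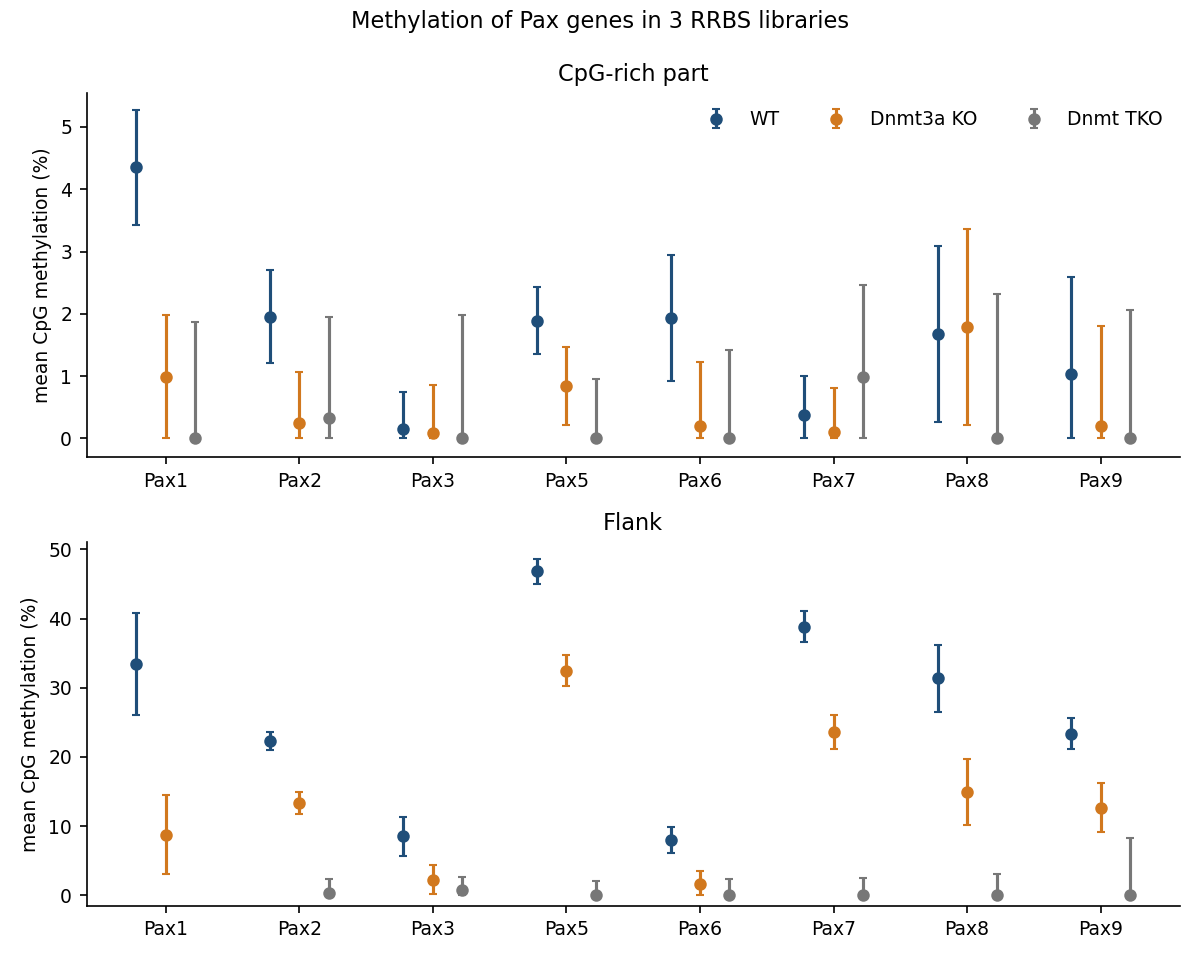
Mean CpG methylation (%) of each Pax gene in the CpG-rich part (top) and the flank (bottom), with WT and Dnmt3a KO over their shared CpGs and Dnmt TKO over its own CpGs. Bars are 95% intervals of counting error, and 1 library stands behind each point. In the flank Dnmt3a KO lies under WT in all 8 genes, from 1.66% in Pax6 to 32.5% in Pax5, while no mean of a CpG-rich part is above 4.35%. Dnmt TKO had no covered flank CpG in Pax1.

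Depth limits what can be said of single CpGs. The WT library lists 1354 CpGs in Pax windows with a median of 26 reads, Dnmt3a KO 1238 with a median of 16 and Dnmt TKO 625 with a median of 12, and over 10 reads stood behind 1274, 1094 and 469 of them. The Pax windows together hold 50416 WT reads, 24265 Dnmt3a KO reads and 8051 Dnmt TKO reads, where a read counts at each CpG it covers. The label of the cells was checked at gene starts, within 500 bp. Starts of the ES cell genes Pou5f1, Sox2, Klf4, Tdgf1 and Utf1 had at most 0.0528% methylation in WT and Zfp42 had 1.60%, while Esrrb had 58.4% over 6 CpGs and Nanog was not covered. The germline genes Dazl, Sycp3, Mael, Tex101 and Asz1, which are methylated in ES cells, had between 33.3% and 77.4% in WT, and Ddx4 was not covered there.

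Each CpG was also tested by Fisher's exact test (two-sided) on its reads, with Benjamini-Hochberg adjustment over all 631561 shared CpGs. A CpG was called at an adjusted p under 0.05 and a difference of at least 20 points. This compares the reads of 2 libraries, not the genotypes. Over all shared CpGs 1.64% were called lower in Dnmt3a KO and 0.0304% higher, and outside CpG-rich parts 4.88% were called lower. In Pax windows 7 of 862 CpGs were called lower and 0 higher, and all 7 were among the 280 flank CpGs, which is 2.50% of them. The share of Pax CpGs called lower was thus under the background, both over all CpGs and in the flank. A CpG under 20% in WT cannot fall by 20 points, and 159 of the 280 Pax flank CpGs were, against 39988 of all 181839. From 20% to 50% in WT, 4.17% of Pax flank CpGs were called lower, against 4.88% of all. From 50% to 80% the shares were 10.5% and 7.90%, and from 80% to 100% they were 2.86% and 5.02%. The difference from the background was not tested. None of the 582 CpGs in CpG-rich parts was called in either direction. The called CpGs lay in Pax2 (4), Pax5 (1), Pax7 (1) and Pax9 (1). At an adjusted p under 0.01 only 2 were left, and with 11 reads drawn per CpG and library 0 were called, as over all 631561 CpGs.

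The first group is Pax1 and Pax9, which act in the vertebral column and in the pharyngeal pouches from which the thymus forms. Pax1 (chr2:147187661-147219031, plus strand) has 8 shared flank CpGs, with a mean of 33.4% in WT and 8.79% in Dnmt3a KO, a difference of -24.6 points (-33.9 to -15.4). The printed Pax1 stretch lies in an intron 11339 bp past the gene start and 6689 bp from CpG-rich DNA. Its 4 CpGs, from 5′ to 3′, stood at 71.4%, 57.1%, 61.5% and 45.5% in WT and at 18.8%, 11.8%, 12.5% and 27.3% in Dnmt3a KO, on 11 to 17 reads each. Each of the 4 was lower in Dnmt3a KO and none passed the test across all CpGs, with adjusted p between 0.232 and 1. The other 4 flank CpGs of Pax1, 43 bp of coding exon starting 11828 bp from the gene start, had 7.97% in WT and no methylated read in 56 Dnmt3a KO reads.

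The CpG-rich part of Pax1 had 4.35% in WT over 67 CpGs, above the other 7 genes under this CpG-rich rule, against 0.994% in Dnmt3a KO (difference -3.36, -4.71 to -2.01). With CpG-rich windows of 200 bp Pax8, Pax5 and Pax7 stood above it, at 9.33%, 5.42% and 4.77% against 4.56%, and with WT blocks Pax1 had 1.46% and the interval of its difference, -2.20 to 0.0165, includes 0. That level came mainly from a coding exon toward the downstream end of a CpG-rich stretch of 1965 bp. There 7 neighbouring CpGs, between 4176 and 4309 bp past the gene start, ranged from 11.1% to 45.5% in WT and from 0% to 18.2% in Dnmt3a KO. Of these, 6 were lower in Dnmt3a KO. The 54 shared CpGs of the unmethylated WT block just upstream, which ends 3992 bp past the gene start, had a mean of 1.46% in WT and 0.372% in Dnmt3a KO.

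Pax9 (chr12:57792754-57813809, plus strand) was 23.4% methylated in WT over 16 flank CpGs and 12.7% in Dnmt3a KO (difference -10.7, -14.9 to -6.48). The flank of Pax9 is made of 2 unlike stretches. In an intron 8594 bp past the start, 11 CpGs had a mean of 5.84% in WT and 0.673% in Dnmt3a KO. Across coding exon and 3′ UTR 18068 bp past the start, 5 CpGs had 62.0% in WT and 39.1% in Dnmt3a KO (difference -22.8, -34.4 to -11.3). The called CpG of Pax9, chr12:57810827 in the coding exon, had 45 of 63 reads methylated in WT (71.4%) and 5 of 21 in Dnmt3a KO (23.8%), with an adjusted p of 0.0194. The CpG-rich part of Pax9 had 1.03% in WT and 0.196% in Dnmt3a KO over 34 CpGs, and the interval of that difference, -3.07 to 1.40, includes 0.

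The second group is Pax2, Pax5 and Pax8. They act together at the boundary of midbrain and hindbrain, and apart from it Pax2 directs the kidney and optic stalk, Pax5 commits cells to the B lineage and Pax8 drives thyroid differentiation. Pax5 (chr4:44544017-44724318, minus strand) had 46.8% in WT and 32.5% in Dnmt3a KO over 67 flank CpGs (difference -14.3, -17.2 to -11.5). Its WT flank was above those of the other genes under this CpG-rich rule, but with CpG-rich windows of 200 bp Pax9 (62.0%) and Pax1 (58.9%) stood above Pax5 (47.4%), and with WT blocks Pax7 (45.4%) and Pax2 (44.8%) did (Pax5 38.8%). Of these CpGs 55 were lower in Dnmt3a KO and 7 higher. In place, 61 of the Pax5 flank CpGs are intronic and 6 lie past the end of the gene.

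Within the Pax5 introns, stretches of a like WT level differed in Dnmt3a KO. Of the 4 CpGs in the printed stretch with little change, 117887 bp past the start, WT had 78.6%, 86.2%, 82.8% and 88.1% and Dnmt3a KO had 82.4%, 79.2%, 87.5% and 88.0%, in the order of the sequence. The mean was 83.9% in WT and 84.3% in Dnmt3a KO, and the interval of the difference ran from -9.31 to 9.98 points. A stretch of 7 CpGs 154336 bp past the start went from 85.9% to 59.5% (difference -26.4, -35.5 to -17.2). In the 6 printed CpGs past the end of Pax5, WT ranged from 36.4% to 90.9% on 11 reads each and Dnmt3a KO from 0% to 31.6% on 12 to 20 reads, and each was lower in Dnmt3a KO. Their mean went from 53.0% to 20.9% (difference -32.2, -46.1 to -18.2), and 0 of 37 Dnmt TKO reads at 3 of them were methylated. The called CpG of Pax5, chr4:44568401 in an intron, had 22 of 38 reads methylated in WT (57.9%) and 2 of 19 in Dnmt3a KO (10.5%), with an adjusted p of 0.0412.

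The printed Pax5 stretch with low WT methylation lies 153089 bp past the start in an intron and holds 14 CpGs outside any CpG-rich part. Its mean was 4.49% in WT and 0.311% in Dnmt3a KO. The highest CpGs in WT, at 16.1% and 17.2%, stood side by side in the middle, and 1 read of 256 was methylated in Dnmt3a KO. The CpG-rich part of Pax5 had 1.89% in WT and 0.844% in Dnmt3a KO over 132 CpGs (difference -1.04, -1.87 to -0.222). Within it, 12 CpGs of 5′ UTR from 466 to 601 bp past the start had 9.16% in WT and 2.11% in Dnmt3a KO (difference -7.05, -10.9 to -3.18), while the 78 CpGs of the large intronic CpG-rich stretch had 0.498% and 0.425%.

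Pax2 (chr19:44830539-44912758, plus strand) had 22.3% in WT and 13.4% in Dnmt3a KO over 69 flank CpGs (difference -8.89, -10.9 to -6.85). The gene start was unmethylated, with no methylated read in WT over 39 CpGs within 500 bp. In the printed Pax2 intron stretch, the 5 CpGs had 80%, 76.5%, 72.5%, 50% and 81.1% in WT and 45.5%, 45.5%, 18.2%, 14.3% and 66.7% in Dnmt3a KO. Each of the 5 was lower, by 14 to 54 points, and the mean went from 72.0% to 38% (difference -34.0, -45.8 to -22.3). The CpG in the middle, chr19:44899927, was called, with 37 of 51 reads methylated in WT and 4 of 22 in Dnmt3a KO (Fisher's exact test, adjusted p = 0.00409).

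The other 3 called CpGs of Pax2 form the only cluster of called CpGs in the family. They lie within 76 bp of the 3′ UTR, chr19:44912490-44912565, 671 to 746 bp from CpG-rich DNA. In WT they stood at 26.5%, 23.3% and 51.0%, and in Dnmt3a KO at 2.04%, 2.04% and 2.08%, with adjusted p of 0.0170, 0.0438 and 5.33e-07. Over all 11 CpGs of that UTR stretch the mean was 19.2% in WT and 2.83% in Dnmt3a KO (difference -16.4, -19.9 to -12.8), and none of 50 Dnmt TKO reads was methylated. Other Pax2 stretches kept most of their methylation. In the coding exon 62444 bp past the start 3 CpGs had 83.1% in WT and 79.1% in Dnmt3a KO (interval of the difference -19.4 to 11.5), and in the intron 29539 bp past the start 3 CpGs had 82.8% and 73.3% (-24.5 to 5.56).

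Pax8 (chr2:24276071-24331119, minus strand) was 31.4% methylated in WT and 15.0% in Dnmt3a KO over 14 flank CpGs (difference -16.4, -23.2 to -9.53). WT methylation at the gene start was higher in Pax8 than in any other member with covered CpGs there. Within 500 bp of the start, 3 CpGs of 5′ UTR that lie outside the CpG-rich part had 27.3%, 36.4% and 27.3% in WT on 11 reads each, and 5.88%, 12.5% and 7.14% in Dnmt3a KO on 14 to 17 reads, in the order of distance from the start (428, 455 and 468 bp). In the other 7 genes the shared CpGs of the same interval had at most 0.951% in WT, except for the 1 CpG that both libraries covered in Pax9, at 7.69%, where WT alone covered 6 CpGs with a mean of 6.49%. The whole stretch of 11 CpGs at the Pax8 start had 27.4% in WT and 11.9% in Dnmt3a KO, with 2 of its CpGs higher in Dnmt3a KO. The CpG-rich part of Pax8, in an intron, had 1.67% in WT and 1.79% in Dnmt3a KO over 26 CpGs (difference 0.119, -1.99 to 2.23). The sign of that difference turned with summed reads (-0.543), at over 20 reads (-0.759) and with CpG-rich windows of 200 bp (-4.52, -7.24 to -1.81).

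The third group is Pax3 and Pax7, which act in the dorsal neural tube, the neural crest and the precursors of skeletal muscle. Pax7 (chr4:139292977-139389445, minus strand) had 38.8% in WT and 23.6% in Dnmt3a KO over 50 flank CpGs (difference -15.2, -18.5 to -11.9), with 43 CpGs lower and 3 higher. In the printed Pax7 intron stretch the 8 CpGs lay between 73.2% and 95% in WT and between 30.8% and 85.7% in Dnmt3a KO. All 8 were lower in Dnmt3a KO, though at the sixth from the 5′ end the values were 86.7% and 85.7%. The mean went from 83.8% to 54.3% (difference -29.6, -38.9 to -20.3). The called CpG, chr4:139351971, is the second from the 5′ end of the printed strand, with 33 of 39 reads methylated in WT and 4 of 13 in Dnmt3a KO (Fisher's exact test, adjusted p = 0.0376). A stretch of 5 CpGs 71424 bp past the start had 73.9% and 67.5% (interval of the difference -16.6 to 3.73).

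The Pax7 CpG-rich part was nearly free of methylation in both libraries, with 0.372% in WT and 0.108% in Dnmt3a KO over 117 CpGs (interval of the difference -1.21 to 0.684). With CpG-rich windows of 200 bp it had 4.77% and 2.89%, a difference of -1.88 (-2.98 to -0.774). Upstream of the gene, from position -2899 bp relative to the start and outside CpG-rich DNA, 6 CpGs had a mean of 11% in WT and no methylated read among 116 in Dnmt3a KO.

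Pax3 (chr1:78097842-78193709, minus strand) was low throughout the CpGs shared by both libraries, which reach from position -4767 bp relative to its start to 8064 bp past it and so leave most of the gene out of the comparison. Its 24 flank CpGs had 8.50% in WT and 2.27% in Dnmt3a KO (difference -6.23, -9.72 to -2.74). The highest stretch was a coding exon 1773 bp past the start, where 4 CpGs went from 19.9% to 3.36%. In the CpG-rich part 42 CpGs had 0.147% in WT and 0.0829% in Dnmt3a KO. The printed intronic CpG-rich stretch of Pax3 holds 19 of them, and none of 1248 WT reads, 592 Dnmt3a KO reads or 155 Dnmt TKO reads was methylated there, which allows up to 1.94% in Dnmt TKO by a limit of 3 reads.

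The last group is Pax4 and Pax6. Both act in the endocrine pancreas, and Pax6 directs the eye and parts of the brain. Pax6 (chr2:105509053-105543317, plus strand) had 8.0% in WT over 32 shared flank CpGs and 1.66% in Dnmt3a KO (difference -6.34, -8.98 to -3.71). This WT level was close to the 8.50% of Pax3, and their order turned at over 20 reads, where Pax6 had 12.3% and Pax3 6.85%. Over all flank CpGs that WT covered, the WT means were higher, 14.1% over 69 CpGs in Pax6 and 18.8% over 41 in Pax3. In the printed Pax6 intron stretch the 4 CpGs had 40%, 23.8%, 33.3% and 31.8% in WT and 0%, 14.3%, 4.76% and 9.52% in Dnmt3a KO, on 20 to 22 reads each. All 4 were lower, and none of 48 Dnmt TKO reads was methylated. The mean went from 32.2% to 7.14% (difference -25.1, -36.8 to -13.4).

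The Pax6 window holds 5 CpG-rich stretches, of which 3 had shared CpGs. The stretch at the start and the large stretch 5918 to 8198 bp past it, where several Pax6 transcripts begin, had 0.951% and 0.131% in WT. The intronic stretch 12178 bp past the start differed from these, with 8.85% over 14 CpGs in WT and 0.840% in Dnmt3a KO (difference -8.01, -12.3 to -3.71). The Pax6 window also holds parts of Elp4 and of the transcript Pax6os1, and the Pax9 window part of Slc25a21. Noncoding transcripts lie in the windows of Pax1, Pax2, Pax5, Pax8 and Pax9 too, so CpGs there are not those of the Pax gene alone.

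Pax4 (chr6:28392334-28399353, minus strand) had no listed CpG in WT. In Dnmt3a KO, 3 CpGs had over 10 reads, with 69.2%, 18.2% and 0%, and Dnmt TKO had none. The Pax4 window therefore enters no comparison.

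The flank difference stayed below 0 in the 8 genes under each alternative that gave a value, which leaves out Pax1 at over 20 reads, but its size moved by over 1.5 times in all of them except Pax5. With CpG-rich windows of 200 bp (GC at least 50%, ratio at least 0.6) it was -41.3 points in Pax1 over 4 CpGs, -22.8 in Pax9 over 5 and -1.49 in Pax6 over 21. With the unmethylated blocks of WT as the CpG-rich part it was -18.2 in Pax2, -10.5 in Pax6 and -5.65 in Pax8, where no block was found and all 40 CpGs count as flank, and with summed reads it was -17.8 in Pax9 and -4.0 in Pax3. At over 20 reads Pax7 had -9.99 over 10 CpGs. A window of 10000 bp around the gene gave -11.6 in Pax6.

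**Figure D2:**
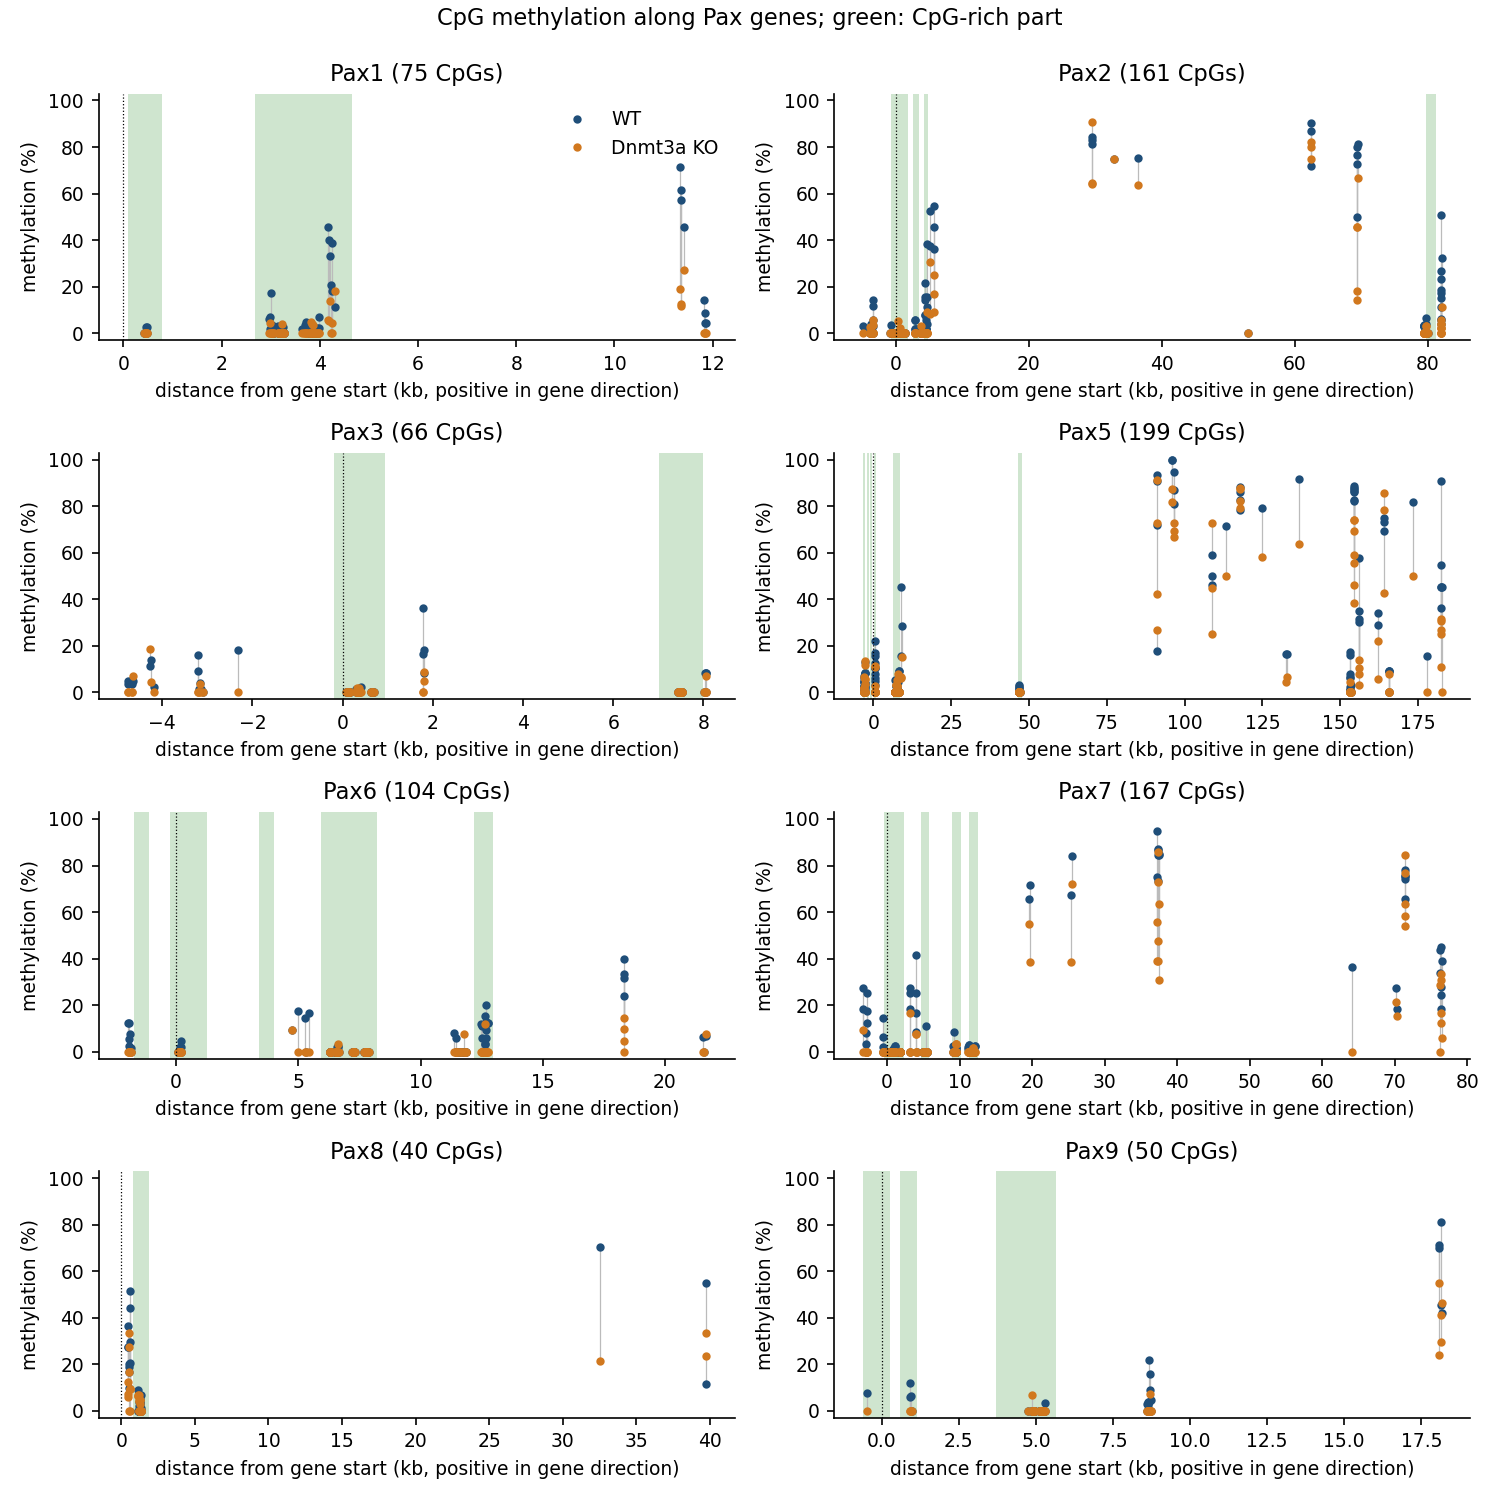
Methylation (%) of each CpG covered in WT (blue) and Dnmt3a KO (orange), against distance from the gene start in kb, positive in the direction of the gene, for the 8 Pax genes with shared CpGs. A grey line joins the values of the same CpG, green marks CpG-rich parts and the dotted line is the gene start. Methylated CpGs lie mostly outside the green parts, in the gene bodies of Pax2, Pax5 and Pax7, and Dnmt3a KO values lie mostly under WT values.

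Split by annotation, the flank CpGs of all Pax genes were methylated to unlike degrees. Upstream of the genes, 50 CpGs had 6.51% in WT and 1.10% in Dnmt3a KO. The 28 CpGs of UTRs had 18.0% and 5.74%, the 30 CpGs of coding exons 33.6% and 18.2%, and the 166 intronic CpGs 36.1% and 24.0%. The 6 downstream CpGs are those printed for Pax5. Each of these differences has an interval below 0, and the part of the WT level that Dnmt3a KO lacked went from 83.1% upstream to 33.6% in introns. The classes hold different genes and WT levels, and 61 of the 166 intronic CpGs are in Pax5. In single genes the lost part ran from 27.2% (Pax5) to 88.5% (Pax9) in introns and from 65.9% (Pax3) to 100% (Pax6) upstream. An effect of the place itself was not tested.

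The flank CpGs were further grouped into stretches in which neighbours lie no more than 300 bp apart, a rule set after the data were seen. There were 65 such stretches, 42 of them with at least 3 CpGs. Of these 42, 41 were lower in Dnmt3a KO, 25 of them with an interval below 0. The stretch that was higher was the printed Pax5 stretch with little change. CpGs of a stretch can share reads, so the intervals of stretches can be too narrow. Of the 14 with a WT mean of at least 50%, 7 had an interval below 0. All 14 together ranged from -0.401% to 70.2% in the part of the WT level that Dnmt3a KO lacked. All 6 with a WT mean from 20% to 50% had an interval below 0, as did 12 of the 22 under 20%. Stretches of high WT methylation thus spread widely, from the kept Pax5 stretch to the Pax1 intron.

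**Figure D3:**
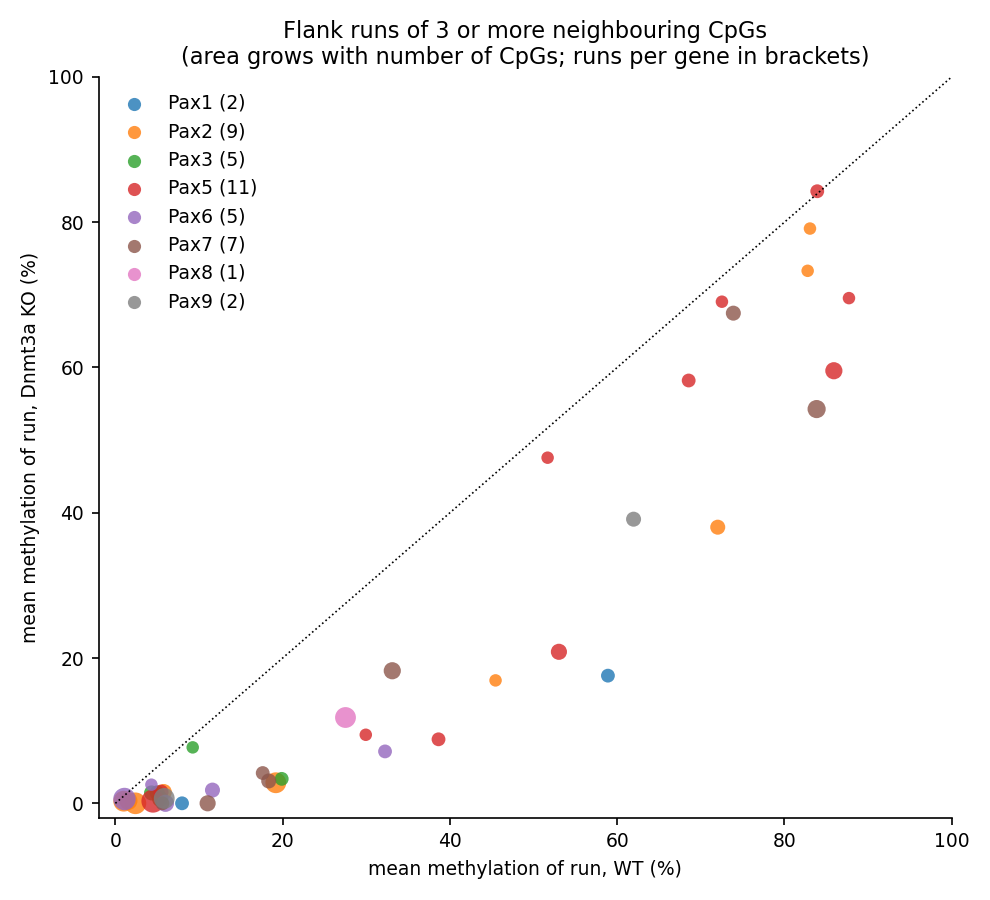
Mean methylation (%) of the 42 flank stretches of at least 3 CpGs in WT (x axis) and Dnmt3a KO (y axis), coloured by gene, with larger points for more CpGs. The dotted line marks equal values. Points under 50% in WT lie far below the line or near 0, and above 50% they spread from the line, where the Pax5 stretch at 83.9% and 84.3% sits, to the Pax1 stretch at 58.9% and 17.6%.

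With distance from the nearest CpG-rich DNA, WT methylation of Pax flanks did not rise evenly. At 1 to 500 bp, 64 CpGs of 6 genes had 9.85% in WT and 3.39% in Dnmt3a KO, and from there to 1000 bp 39 CpGs had 16.5% and 3.50%. Between 2000 and 4000 bp the 44 CpGs had only 6.91% and 1.26%, between 4000 and 10000 bp 17 CpGs had 32.2% and 11.8%, and beyond 10000 bp 111 CpGs had 54.1% and 38.3%. The interval between 1000 and 2000 bp held 5 CpGs, all upstream of Pax3, with 4.32% and 1.43%. Over all CpGs of the genome the same intervals rose from 19.8% to 61.9% in WT, and from 11.3% to 49.0% in Dnmt3a KO. Within 500 bp of CpG-rich DNA, Dnmt3a KO lacked 65.6% of the WT level in Pax flanks and 42.8% over all CpGs, and beyond 10000 bp 29.2% and 20.8%. The intervals hold different genes, and the differences between Pax flanks and all CpGs were not tested.

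**Figure D4:**
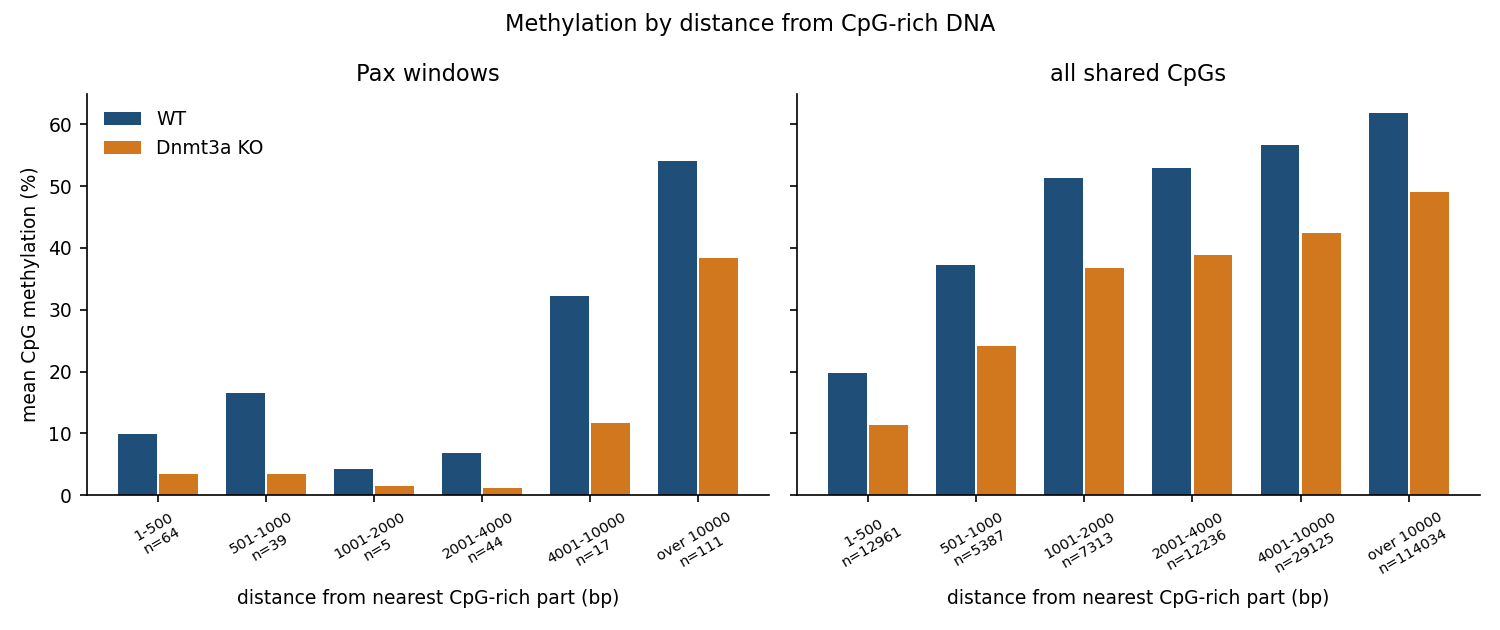
Mean CpG methylation (%) outside CpG-rich parts by distance from the nearest CpG-rich part (bp), for Pax windows (left) and all shared CpGs (right), with bars for WT (blue) and Dnmt3a KO (orange) and the number of CpGs under each. In Pax windows WT stays at or under 16.5% up to 4000 bp and reaches 54.1% beyond 10000 bp, and Dnmt3a KO is lower in each interval.

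Flank CpGs were also set beside all flank CpGs of a like WT level. At WT levels under 20%, 159 Pax CpGs went from 5.85% to 1.92% and all such CpGs from 4.79% to 2.32%. From 20% to 50%, 48 Pax CpGs went from 33.9% to 12.2% and all CpGs from 35.2% to 19.4%. From 50% to 80% the means were 67.1% and 43.9% over 38 Pax CpGs, against 68.2% and 51.5%, and from 80% to 100% they were 87.0% and 66.1% over 35 Pax CpGs, against 87.0% and 72.2%. In each class the Pax difference was larger, for example -21.7 points (-25.5 to -17.9) against -15.8 (-15.9 to -15.6) from 20% to 50%. The classes were cut on the WT value itself, Pax CpGs share reads and stretches, and the difference between the sets was not tested.

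Among the 5398 protein-coding genes with at least 10 shared flank CpGs, the median flank methylation was 56.3% in WT and 39.8% in Dnmt3a KO, the median difference was -12.3 points, and 96.8% of genes were lower in Dnmt3a KO. The 7 Pax genes with that many CpGs had lower WT flanks than most genes. Pax6 and Pax3 lay above only 6.35% and 6.63% of genes, Pax2, Pax9, Pax8 and Pax7 above 15.1% to 29.8%, and Pax5, the highest, above 38.3%. As a share of the WT level, Dnmt3a KO lacked 30.6% in Pax5 and 79.3% in Pax6, against a median gene of 26.2%. In this share the 7 lay above 60.0% (Pax5) to 96.5% (Pax6) of genes. Over all flank CpGs the lost share was larger where WT was low, 51.6% at WT levels under 20% and 17.0% from 80% to 100%. In points, 79.5% of genes fell further than Pax3, 79.2% than Pax6, 68.3% than Pax2 and 59.2% than Pax9. For Pax5, Pax7 and Pax8 these shares of genes were 39.1%, 35.05% and 30.1%. The plot of all genes shows the Pax genes inside the cloud of other genes, and no test of Pax genes against the others was made. In CpG-rich parts the median of 11898 genes was 0.163% in WT, and Pax1 at 4.35% lay above 90.1% of them.

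**Figure D5:**
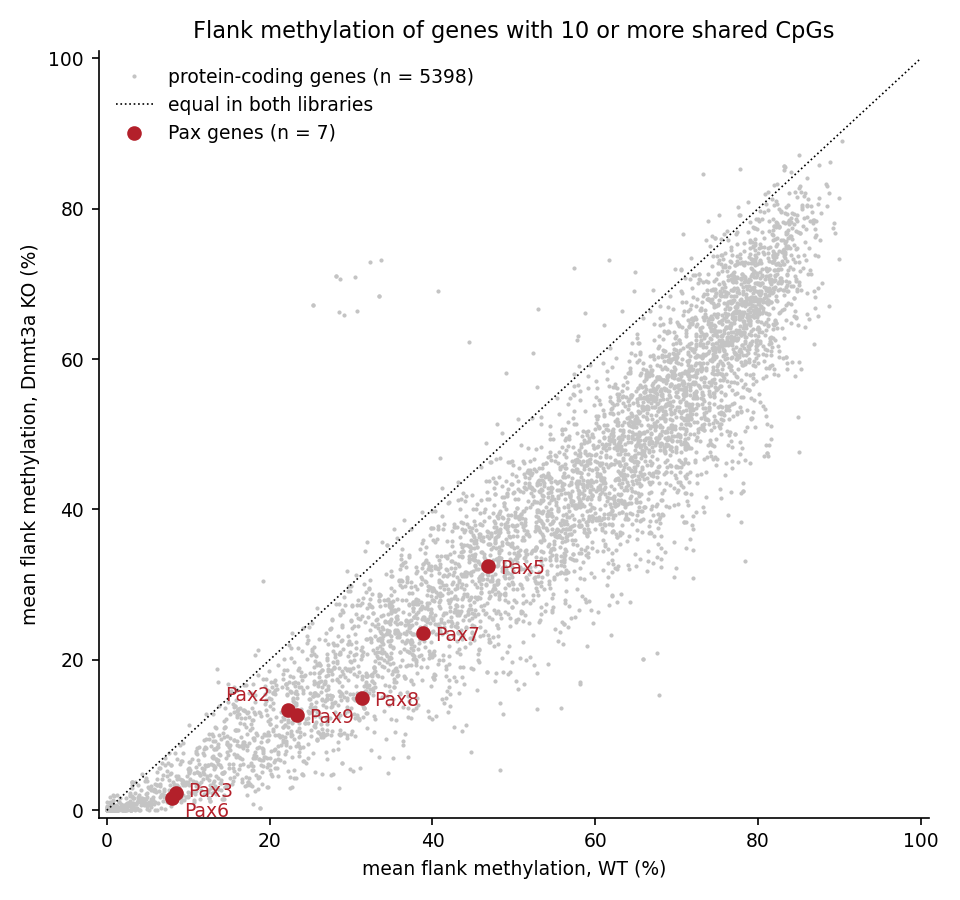
Mean flank methylation (%) in WT (x axis) and Dnmt3a KO (y axis) for 5398 protein-coding genes with at least 10 shared flank CpGs (grey) and the 7 Pax genes among them (red). The dotted line marks equal values. Pax genes lie in the lower left, from Pax6 at 8.0% and 1.66% to Pax5 at 46.8% and 32.5%, under the line like 96.8% of genes.

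Dnmt TKO cells gave the level seen without DNA methyltransferases. Of 352 Pax CpGs shared with WT, 29 were called lower in Dnmt TKO by the same test and 0 higher, against 19.4% and 0% of all 299007 CpGs shared by these 2 libraries. The 29 were all in flanks, 11 in Pax5, 10 in Pax7, 6 in Pax2 and 2 in Pax8. WT and Dnmt TKO shared 77 Pax flank CpGs. Over all flank CpGs that these 2 libraries shared, 52818 of 74368 were called lower, a larger share. Their WT mean was 55.7%, against 35.4% over the 77 Pax CpGs, and a CpG under 20% in WT cannot be called. Among flank CpGs covered in all 3 libraries, 11 of 11 Pax CpGs from 50% to 80% in WT were called lower, and 22456 of 22589 overall. From 80% to 100% these counts were 6 of 6 and 18247 of 18249. Over the 321 Pax CpGs covered in all 3 libraries the means were 7.31% in WT, 3.95% in Dnmt3a KO and 0.227% in Dnmt TKO. Over the 68 of these in flanks, Dnmt3a KO with 17.6% stood between WT with 30.5% and Dnmt TKO with 0.140%. Summed, 13 of 6491 Pax reads were methylated in Dnmt TKO, a share of 0.200% (Wilson interval up to 0.342%). In CpG-rich parts the share was 0.474% of reads in Dnmt3a KO and 0.170% in Dnmt TKO, over CpGs that overlap only in part. Over the 253 CpGs of these parts covered in all 3 libraries, the means were 0.295% in Dnmt3a KO and 0.250% in Dnmt TKO, against 1.08% in WT. The Dnmt TKO mean rests on 8 methylated reads, 6 of them at neighbouring CpGs of a Pax7 intron, so the 2 means cannot be ranked or called alike. Over all 219395 CpGs of CpG-rich parts covered in all 3 libraries, the means were 1.29% in Dnmt3a KO and 0.0469% in Dnmt TKO.

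Other genes of the Pax network were read from a list of targets of Pax factors. It holds 18 genes, such as the muscle regulator Myod1, the kidney genes Wt1, Ret and Gdnf, and the thyroid iodide transporter Slc5a5, and 11 of them had shared CpGs in the flank and 11 in CpG-rich parts. Of their CpGs, 3 of 119 in the flank were called lower, in Met, Mitf and Slc5a5, against 4.88% of all flank CpGs. In CpG-rich parts 1 of 559 was called lower, in Myod1, against 0.323% of all such CpGs. With only 3 and 1 CpGs called and WT levels not matched, these counts give no ranking against the background, and no difference from it was tested. None of these CpGs was called higher. Myod1, the highest in WT of the 8 targets with at least 10 CpGs in CpG-rich parts, had 16.9% in WT and 3.98% in Dnmt3a KO.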

How the data were processed

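RRBS libraries of WT, Dnmt3a KO and Dnmt TKO ES cells, 1 each, were made from MspI fragments of 150-250 and 250-350 bp. The authors aligned reads to mm9 with QuasR and Bowtie, removed CpGs at known SNPs and deposited, per CpG, the read count, the methylated read count and their ratio as a methylation fraction. Trim Galore is named in the submitters' processing notes. Versions are not given in the sources used here. The lowest listed depth was 10 reads. The fraction was recomputed from the counts.

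Depth was 47688375, 21602895 and 9308942 CpG reads. CpGs with over 10 reads in the libraries compared were used. CpG-rich parts came from the mm9 sequence alone. Differences of means have 95% binomial intervals, shares Wilson intervals, and single CpGs the exact test of Fisher, adjusted by Benjamini-Hochberg over all shared CpGs (numba 0.67.0, scipy 1.17.1, pandas 2.3.3, numpy 2.4.6, Python 3.11.15). The test was checked on simulated counts. Blocks of WT are 5 or more consecutive CpGs under 20%, without a gap over 1000 bp, of at least 300 bp. Text names all 9 genes, such blocks, clusters of at least 3 called CpGs within 500 bp, and each gene's largest called fall. Other stretches and the printed sequences were chosen after values were seen. Members, gene lists and tests were chosen with earlier results of these data known. A p-value here compares the reads of 2 libraries. Alternatives changed coverage, averaging, the CpG-rich rule, the window and the calling threshold. A further gene list that was read is not reported here.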

Additional observations from a re-analysis of the deposited data

How the results depend on the processing

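The flank difference of the Pax genes was -11.7 points and lay between -10.0 (reads summed) and -12.7 (WT blocks in place of CpG-rich parts) over the 8 alternatives tried. The value with summed reads, -10.0, fell outside the interval. The difference in CpG-rich parts was -0.684 at over 20 reads and -3.05 with 200 bp windows in place of -1.21, and between -0.775 and -1.30 otherwise. In the 8 genes, all 63 flank values under alternatives stayed below 0, and of 63 in CpG-rich parts 56 did. Pax2 CpG-rich reversed to 0.0696 at over 20 reads. CpGs called lower were 7, and 2 at an adjusted p under 0.01, 0 with 11 reads drawn per CpG and library (when none of 631561 CpGs was called) and 5 to 7 otherwise. None was called higher. At over 20 reads, an alternative chosen after seeing the data, 0 of 15 Pax CpGs were called lower in Dnmt TKO in place of 29 of 352. Over all CpGs at that depth 5169 of 41613 (12.4%) were. These 15 had a WT mean of 0.582%, so none could fall by the 20 points a call needs, and the count shows nothing.

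Over CpGs of all 3 libraries, WT had 0.582% at over 20 reads (15 CpGs), 5.51% with summed reads and 17.8% over its own CpGs, against 7.31%. Dnmt3a KO had 0.101%, 2.80% and 7.35%, against 3.95%. No paired analysis was possible because each genotype has 1 library. With no methylated read among 6491 in Dnmt TKO, a limit of 3 reads would allow up to 0.0462%. As 13 were methylated, that limit does not apply, and the share was 0.200% (Wilson interval 0.117% to 0.342%).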

Other observations

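Shared CpGs were less methylated than those WT covered by itself. Over all 529 flank CpGs with over 10 reads in WT the Pax mean was 39.8%, against 29.1% over the 280 shared with Dnmt3a KO, and Dnmt3a KO had 20.5% over its own 373 flank CpGs. In Pax8 the same WT means were 47.9% over 23 CpGs and 31.4% over 14.

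The few methylated Dnmt TKO reads were not spread evenly. Of the 8 in CpG-rich parts, 6 lay at neighbouring CpGs of a Pax7 intron (chr4:139379960-139379980), with 1 methylated read of 12 at each, and WT had 1 methylated read among 72 at 1 of these CpGs and none at the others. Another 2 lay 4 bp apart in the 5′ UTR of Pax2, with 1 of 15 reads at each. Reads of the same fragment were not separable in the files used.

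Unmethylated blocks of WT outside CpG-rich DNA were found upstream of Pax2 (1607 bp, 19 CpGs) and Pax3 (1950 bp, 13 CpGs) and in the Pax5 intron (334 bp, 19 CpGs). Over the 15, 10 and 14 of these that Dnmt3a KO also covered, means were 3.34%, 7.80% and 4.49% in WT and 0.799%, 2.68% and 0.311% in Dnmt3a KO.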
